A study of Mus musculus with 6 samples.

Results

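Claudins are the membrane proteins that form the strands of tight junctions between epithelial cells. Through their extracellular segments they set which ions, and how much water, can pass between neighbouring cells. Each stretch of the nephron carries its own set: pore-forming claudins in the leaky proximal tubule, cation-conducting and cation-excluding ones in the thick ascending limb, and tighter or chloride-conducting ones in the collecting duct. The 10 genes of the family described here were chosen by symbol, namely Cldn1, Cldn2, Cldn3, Cldn4, Cldn7, Cldn8, Cldn10, Cldn12, Cldn14 and Cldn19, and all 10 were among the 13696 genes in the deposited kidney tables.

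The samples were 3 kidneys labelled as a fat-1 knockin (fat-1 here) and 3 labelled wild type (WT), all from mice 24 months old. The inserted fat-1 gene comes from a nematode and encodes a desaturase able to make omega-3 fatty acids out of omega-6 ones, which mice themselves cannot do. Its promoter and insertion site and the mouse strain were not stated in the labels, and its RNA was not analysed here. Values are FPKM, the number of sequenced fragments divided by transcript length and by the mapped fragments of the library, given per transcript and summed per gene, so levels can be set beside each other between genes per length. A log2 difference below is the fat-1 mean minus the WT mean of log2(FPKM + 1), a scale on which low genes change less than in FPKM. Nothing in the labels ties each kidney to its own animal. The p-values therefore measure only the spread between these samples, which may be technical.

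No claudin passed the test. Of the 10 genes, 9 reached at least 1 FPKM in at least 3 libraries and were tested; 0 rose and 0 fell at an adjusted p of 0.05 in limma, with adjusted p between 0.465 and 0.993. Across all 11698 tested genes, 0.18% were called, 0.12% as higher and 0.0598% as lower in fat-1. Of the 18 listed transcripts of the 10 genes, 15 were tested and 0 were called, against 0.0584% of all 17119 tested transcripts. At an unadjusted p of 0.05 in limma, 1 of the 9 was lower in fat-1, Cldn8, and 0 were higher, against 4.16% lower and 5.8% higher over all tested genes. The median difference of the 9 genes was -0.14 and their range ran from -0.48 for Cldn1 to 0.34 for Cldn4, while the median over all tested genes was 0.01. Several intervals were wide, so these libraries do not show that the claudins were alike in both groups.

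**Figure D1:**
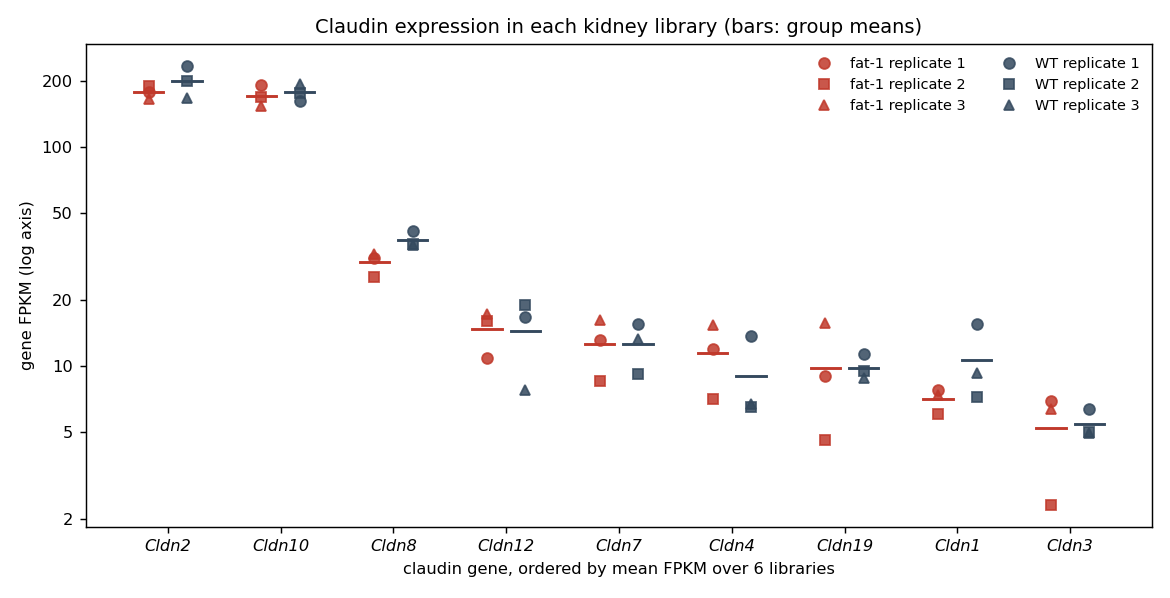
FPKM on a log axis for the 9 tested claudins in each of the 6 libraries, with fat-1 (red) left of WT (dark) and bars at the group means. Cldn2 and Cldn10 lie above 150 FPKM in every library, Cldn8 lies between 25.4 and 41.1 FPKM, and only for Cldn8 of these 9 genes do the 3 fat-1 libraries all lie below the 3 WT libraries.

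The libraries differed in their markers of cell types along the nephron. In fat-1 replicate 3, several markers of the urothelium, which lines the renal pelvis, and of the thin limbs stood far above the other 5 libraries. The 6 urothelial markers in the tables summed to between 0.816 and 34.6 FPKM in fat-1 and between 1.74 and 3.89 FPKM in WT. All 7 thin limb and 5 of these 6 urothelial markers were highest in fat-1 replicate 3, though Aqp1 (327 FPKM against 307 FPKM in WT replicate 2) and Bst1 (5.0 FPKM against 4.19 FPKM in WT replicate 1) only slightly so. The exception was Krt20, at 7.05 FPKM in fat-1 replicate 1 and 2.43 FPKM in replicate 3. The uroplakin gene Upk3a was at 9.86 FPKM there and at most 0.146 FPKM in the others. Slc14a2, the urea transporter of the thin descending limb and inner medullary collecting duct, was at 5.52 FPKM there and at most 0.130 FPKM in the others. The summed level of the 12 thick ascending limb markers ran from 918 to 1884 FPKM in fat-1 and from 1192 to 1512 FPKM in WT, with fat-1 replicate 2 lowest and fat-1 replicate 3 highest. WT replicate 1 stood apart in macrophage markers, whose summed level was 890 FPKM there, 113 to 214 FPKM in fat-1 and 103 to 130 FPKM in the other WT libraries. Proximal tubule S1 and S2 markers were strongly present in all libraries, at 1811 to 2720 FPKM in fat-1 and 1948 to 2388 FPKM in WT. Of 8 markers of the later S3 part of the proximal tubule, 7 had negative differences (median -0.84) and 0 passed, with sums of 319 to 689 FPKM in fat-1 and 510 to 1028 FPKM in WT. The part of these cell types in the claudin values was not tested. Without fat-1 replicate 3, 0 claudins and 0 of all tested genes were called, so that count says nothing about claudins. The log2 differences were then -0.12 for Cldn2, -0.40 for Cldn8, -0.51 for Cldn1, -0.32 for Cldn3 and -0.21 for Cldn7. Those of Cldn4, Cldn12 and Cldn19 are given beside their results. In such bulk samples, fewer cells of a type and less RNA per cell cannot be told apart.

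Cldn10 makes both a proximal and a thick ascending limb claudin, and the tables list its transcripts separately. Alternative first exons give claudin-10a, which favours anions and is known from the proximal tubule, and claudin-10b, which favours cations and carries paracellular sodium in the thick ascending limb. The first exon encodes most of the extracellular segment that lines the pore, so the coding parts of the first exons are shown for the transcripts that differ there. Cldn10-201 has the claudin-10a exon (chr14:118788157-118788370, plus strand) and Cldn10-203 the claudin-10b exon (chr14:118854990-118855209, plus strand), on mm10. Both sequences are from GENCODE release M21, 5′ to 3′, with the start codon in capitals:
Cldn10-201: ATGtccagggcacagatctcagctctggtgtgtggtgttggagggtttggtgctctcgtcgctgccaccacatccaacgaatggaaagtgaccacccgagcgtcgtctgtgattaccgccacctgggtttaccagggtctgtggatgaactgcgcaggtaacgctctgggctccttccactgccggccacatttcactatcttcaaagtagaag
Cldn10-203: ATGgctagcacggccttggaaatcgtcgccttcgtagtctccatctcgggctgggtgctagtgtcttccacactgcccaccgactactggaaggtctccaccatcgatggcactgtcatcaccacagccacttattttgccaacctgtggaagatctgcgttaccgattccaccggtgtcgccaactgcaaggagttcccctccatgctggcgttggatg
The exons hold 214 and 220 coding bases, and 51.8% of the 226 columns of their global alignment were identical. The other 4 of 5 coding exons are shared, and the annotated starts of the transcripts lie 66824 bases apart. Reads over the shared exons had to be divided between the transcripts by the authors' tool, which the labels do not name.

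The claudin-10a transcript was by far the more abundant form. Cldn10-201 was at 184, 166 and 134 FPKM in fat-1 replicates 1 to 3, against 154, 168 and 188 FPKM in WT replicates 1 to 3. The groups overlapped, with fat-1 replicate 3 lowest and WT replicate 3 highest, and the log2 difference was -0.08 ± 0.15 (SE; limma adjusted p over transcripts = 0.946). Cldn10-203 was at 7.34, 3.62 and 18.9 FPKM in fat-1, against 7.96, 8.03 and 5.72 FPKM in WT. Here the fat-1 group held both the lowest library, replicate 2, and the highest, replicate 3, on either side of all WT libraries (0.17 ± 0.53 SE; adjusted p = 0.974). The share of Cldn10 FPKM given to Cldn10-203 was accordingly 3.84%, 2.14% and 12.4% in fat-1 and 4.90%, 4.55% and 2.95% in WT (exact two-sided permutation p = 0.9; the smallest p this design allows is 0.1). Cldn10-202, which shares the Cldn10-201 exon and lacks a later coding exon, reached 0.743 FPKM in WT replicate 1 and was near 0 in the others.

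**Figure D2:**
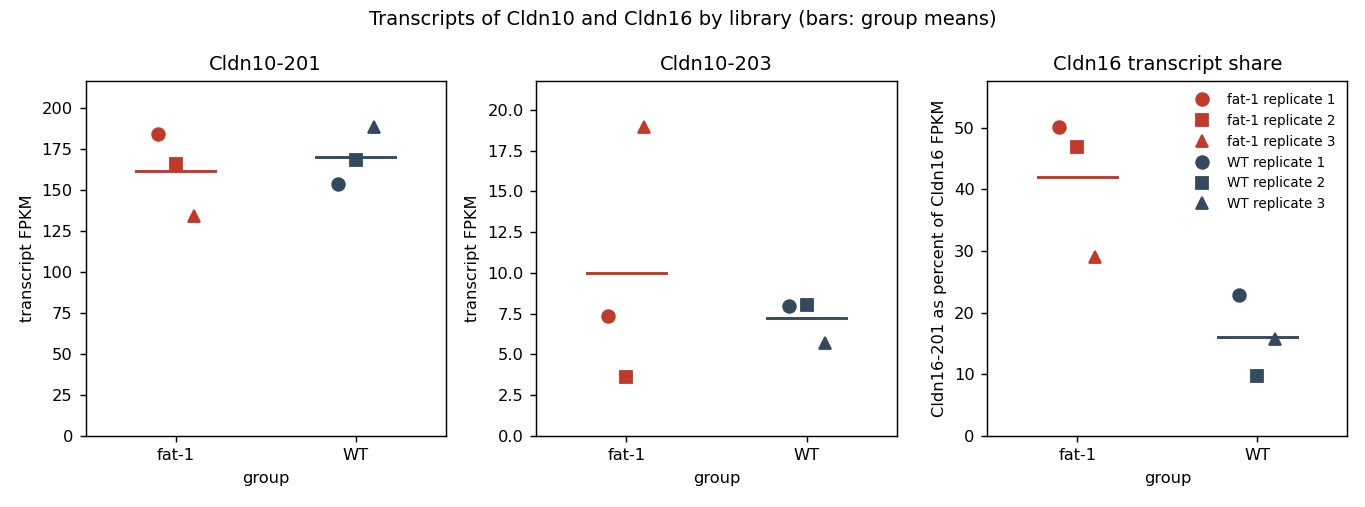
Transcript FPKM of Cldn10-201 (left) and Cldn10-203 (middle), and Cldn16-201 as a percent of Cldn16 FPKM (right), in each library, with fat-1 left of WT and bars at the group means. Cldn10-203 is highest in fat-1 replicate 3 (18.9 FPKM) and lowest in fat-1 replicate 2 (3.62 FPKM), and the Cldn16-201 share lies between 29.0% and 50.1% in fat-1 and between 9.78% and 22.8% in WT.

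Summed over its transcripts, Cldn10 (chromosome 14, 118787908 to 118875489) was at 191, 169 and 153 FPKM in fat-1, against 162, 176 and 194 FPKM in WT. The groups overlapped almost fully. It averaged 171 ± 19 FPKM in fat-1 and 178 ± 15.7 FPKM in WT (SD, n = 3 each). Its log2 difference was -0.05 ± 0.13 (SE), with a 95% interval from -0.37 to 0.26 (adjusted p = 0.965).

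Cldn2, the cation and water pore of the proximal tubule and thin descending limb (chromosome X, 139800828 to 139811386), had the highest mean level of the family. It was at 177, 189 and 166 FPKM in fat-1, against 234, 200 and 167 FPKM in WT. WT replicate 1 was the highest library and the groups overlapped, with means of 177 ± 11.4 FPKM in fat-1 and 200 ± 33.4 FPKM in WT (SD, n = 3 each). The log2 difference was -0.16 ± 0.15 (SE; adjusted p = 0.843), with a 95% interval from -0.52 to 0.20, and it was -0.04 without WT replicate 1. Part of the excess in that library lay in Cldn2-202, at 38.9 FPKM there and between 0 and 6.59 FPKM in the other 5 libraries. That transcript is annotated with an incomplete coding end. So is Cldn2-203, which was at 8.12, 6.51 and 2.21 FPKM in fat-1, against 0, 9.67 and 0 FPKM in WT. Its log2 difference was 1.45 ± 1.02 (SE, limma adjusted p over transcripts = 0.828). The full-length transcript Cldn2-201 was at 166, 176 and 159 FPKM in fat-1, against 195, 184 and 167 FPKM in WT. It too was highest in WT replicate 1. Together Cldn2 and Cldn10 made up 80.1%, 83.6% and 74.2% of the summed FPKM of the 10 claudins in fat-1, against 76.7%, 80.3% and 80.7% in WT.

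Cldn12, which in mice supports paracellular calcium passage in the proximal tubule beside claudin-2 (chromosome 5, 5505109 to 5514873), was less regular. It was at 10.9, 16 and 17.3 FPKM in fat-1, against 16.8, 19 and 7.79 FPKM in WT. The lowest and the highest library were both WT, and the log2 difference was 0.08 ± 0.34 (SE; adjusted p = 0.980). Without WT replicate 3 it was -0.28, and without fat-1 replicate 3 it was -0.04. Its 3 listed transcripts each have 732 coding bases in a single coding exon. Cldn12-201 took 82.4%, 53.5% and 52.5% of the gene's FPKM in fat-1, against 43.6%, 54.1% and 41.1% in WT (exact two-sided permutation p = 0.3). Cldn12-202 was at 0.0154 FPKM in fat-1 replicate 1 and listed at 0 in WT replicate 3. In the other 4 libraries it lay between 4.49 and 7.80 FPKM. Cldn12-203 ranged from 0.396 to 4.58 FPKM.

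Set against the 12 proximal tubule S1 and S2 markers of the same library, Cldn2 stood 1.52 ± 0.303 log2 units above their mean in fat-1 and 1.72 ± 0.235 above it in WT (SD, n = 3 each). Between the groups this level differed by -0.21 (exact two-sided permutation p = 0.4), and by -0.38 without fat-1 replicate 3 and -0.08 without WT replicate 1. For Cldn10-201, compared in this way after the values were seen, the change was -0.13 (exact p = 0.6), and for Cldn12 it was 0.04 (exact p = 1). Leaving out 1 library moved the Cldn12 value between -0.31 and 0.29. In all, 14 such comparisons were made, and after Benjamini-Hochberg adjustment over them the smallest exact p became 0.969. Of the planned ones not given elsewhere, summed Cldn10 differed by -0.097 against these markers and by 0.076 against thick ascending limb markers. Cldn3 differed by -0.019 against thick ascending limb markers and by 0.076 against principal cell markers. Against principal cell markers, Cldn7 differed by 0.205 (exact p from 0.6 to 0.9 for these genes).

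Cldn19 is a thick ascending limb claudin that pairs with claudin-16 and is needed for paracellular magnesium and calcium reabsorption (chromosome 4, 119255414 to 119262438). It was at 8.97, 4.59 and 15.7 FPKM in fat-1, against 11.3, 9.47 and 8.78 FPKM in WT. The fat-1 libraries again lay on both sides of WT in the order seen for Cldn10-203, with replicate 2 lowest and replicate 3 highest. Means were 9.76 ± 5.61 FPKM in fat-1 and 9.85 ± 1.30 FPKM in WT (SD, n = 3 each), and the log2 difference was -0.14 ± 0.38 (SE; adjusted p = 0.970). The estimate followed single libraries: it was 0.26 without fat-1 replicate 2 and -0.53 without fat-1 replicate 3. Of its transcripts, Cldn19-202 took 63.3%, 54% and 63.4% of the gene's FPKM in fat-1, against 52.4%, 56.5% and 50.1% in WT (exact two-sided permutation p = 0.2).

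Relative to the mean of the 12 thick ascending limb markers, Cldn19 lay -1.41, -1.95 and -1.5 log2 units away in fat-1, against -1.40, -1.85 and -1.56 in WT, and the difference between the groups was -0.01 (exact p = 0.9). Taken by itself, Cldn19 spanned 1.58 log2 units from the lowest to the highest library in fat-1 and 0.330 in WT, beside 1.17 in fat-1 and 0.331 in WT for the median deviation of the markers. For Cldn10-203 the within-group spread was 2.11 in fat-1 and 0.426 in WT, and its level against the markers, a comparison added after the values were seen, was -1.67, -2.22 and -1.24 in fat-1 and -1.85, -2.07 and -2.10 in WT (exact p = 0.4).

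**Figure D3:**
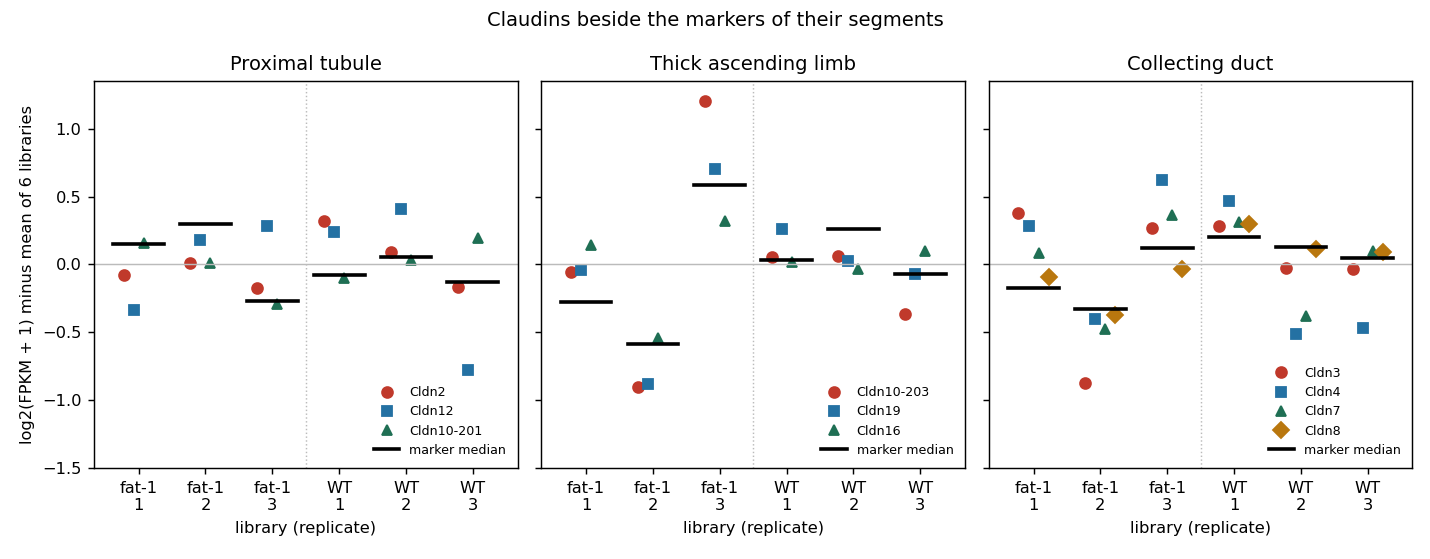
Deviation of log2(FPKM + 1) from the mean of the 6 libraries for claudin genes and Cldn10 transcripts (symbols) and the median deviation of segment markers (black bars), by library. In the thick ascending limb panel, Cldn10-203, Cldn19 and Cldn16 are lowest in fat-1 replicate 2 and highest in fat-1 replicate 3, as is the marker median; Cldn4 is at 0.62 in fat-1 replicate 3 and -0.51 in WT replicate 2.

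Cldn16, outside the 10 and the partner of claudin-19 (chromosome 16, 26463135 to 26482765), had means of 10.8 ± 3.41 FPKM in fat-1 and 10.9 ± 0.546 FPKM in WT (SD, n = 3 each; adjusted p = 0.982). The tables list 2 transcripts of it. Cldn16-201 was at 5.93, 3.29 and 3.94 FPKM in fat-1, against 2.47, 1.02 and 1.79 FPKM in WT, so every fat-1 library lay above every WT library. The log2 difference was 0.97 ± 0.30 (SE) and did not pass over all 17119 tested transcripts (adjusted p = 0.450). Groups that do not overlap in that direction were seen for 7.4% of those transcripts. As a share of Cldn16, Cldn16-201 averaged 42.0 ± 11.4% in fat-1 and 16.1 ± 6.54% in WT (SD, n = 3 each; exact two-sided permutation p = 0.1, the smallest possible, and 0.467 after Benjamini-Hochberg adjustment over 7 shares). Both transcripts are annotated with 705 coding bases in 5 coding exons.

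Cldn14, which in the thick ascending limb blocks cation passage and is known to respond to the calcium-sensing receptor, was barely seen. It was at 0.543 FPKM in fat-1 replicate 1 and 0.206 FPKM in fat-1 replicate 3, and listed at 0 in fat-1 replicate 2 and in all 3 WT libraries. It was the member that missed the filter, so it was not tested. A single transcript of it was listed (chromosome 16, 93919031 to 93929817).

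Among the collecting duct claudins, Cldn8 showed the clearest separation. Claudin-8 acts with claudin-4 in the chloride pathway between collecting duct cells (Cldn8 lies on chromosome 16, 88560828 to 88563183). It was at 31.2, 25.4 and 32.5 FPKM in fat-1, against 41.1, 36.0 and 35.6 FPKM in WT. Every fat-1 library lay below every WT library, with means of 29.7 ± 3.74 FPKM in fat-1 and 37.6 ± 3.06 FPKM in WT (SD, n = 3 each). The log2 difference was -0.34 ± 0.13 (SE), with a 95% interval from -0.65 to -0.02, and did not pass over all genes (limma unadjusted p = 0.0400, adjusted p = 0.465). Groups separated in that direction were seen for 6.86% of all tested genes. Cldn8 was 1 of the 9 tested claudins with this arrangement, and 0 had every fat-1 library above WT, which 8.33% of all tested genes did.

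Of 11 tested principal cell markers, 8 had negative differences (median -0.27) and 0 passed over all genes; 3 had every fat-1 library below WT (Npnt, Scnn1b and Scnn1g) and 1 had every fat-1 library above WT (Aqp3, difference 0.14). The sodium channel subunit genes Scnn1b and Scnn1g differed by -0.27 and -0.29, and the remaining subunit gene Scnn1a by 0.03. Of 10 distal convoluted tubule markers, all 10 had negative differences (median -0.49), 5 had every fat-1 library below WT and 0 passed. Their summed level was 219 to 317 FPKM in fat-1 and 372 to 537 FPKM in WT. Of 13 markers of intercalated cells, the other cell type of the collecting duct, 12 had negative differences (median -0.46) and 0 passed. Of the 13, 7 had every fat-1 library below WT. Their summed level was 202 to 245 FPKM in fat-1 and 285 to 309 FPKM in WT. Over all tested genes, every fat-1 library lay below WT for 6.86% and above WT for 8.33%. Relative to the principal cell markers, Cldn8 stood 0.74 ± 0.247 log2 units above their mean in fat-1 and 0.85 ± 0.0998 above it in WT (SD, n = 3 each), and the groups overlapped (difference -0.11; exact two-sided permutation p = 0.6). That difference was 0.032 without fat-1 replicate 3 and -0.19 without fat-1 replicate 1. Relative to the distal convoluted tubule markers, a comparison added after the values were seen, the difference was 0.40 (exact p = 0.3). The part of these cell types in the Cldn8 difference was not tested.

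Cldn4, a chloride-conducting claudin of the collecting duct that is also found in the urothelium (chromosome 5, 134945119 to 134946934), was at 12, 7.09 and 15.4 FPKM in fat-1, against 13.8, 6.48 and 6.72 FPKM in WT. High and low libraries occurred in both groups, and the log2 difference was 0.34 ± 0.36 (SE; adjusted p = 0.872). It was 0.11 without fat-1 replicate 3, the library with the highest uroplakin levels, and 0.66 without WT replicate 1. Relative to principal cell markers it was -0.61 ± 0.229 log2 units in fat-1 and -1.17 ± 0.510 in WT (SD, n = 3 each), a difference of 0.56 with overlapping groups (exact p = 0.2).

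Cldn3, its neighbour on chromosome 5 (134986214 to 134987472), is a sealing claudin found from the thick ascending limb to the collecting duct. It was at 6.95, 2.33 and 6.34 FPKM in fat-1, against 6.40, 4.99 and 4.97 FPKM in WT. Fat-1 replicate 2 was the lowest library, and the log2 difference of -0.15 ± 0.34 (SE; adjusted p = 0.963) became 0.25 without it.

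Cldn7, which lies at lateral membranes as well as junctions of the distal nephron and whose loss in mice causes renal salt wasting (chromosome 11, 69964779 to 69967885), was at 13.1, 8.56 and 16.1 FPKM in fat-1, against 15.5, 9.24 and 13.3 FPKM in WT. The groups overlapped, with a log2 difference of -0.02 ± 0.27 (SE; 95% interval -0.65 to 0.61; adjusted p = 0.993). Of the collecting duct set, Cldn8 held 49.3%, 58.6% and 46.2% of the summed FPKM of Cldn3, Cldn4, Cldn7 and Cldn8 in fat-1, against 53.6%, 63.5% and 58.8% in WT. The means were 51.4 ± 6.47% in fat-1 and 58.6 ± 4.97% in WT (SD, n = 3 each), and the groups overlapped (exact two-sided permutation p = 0.2).

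Cldn1 is known in the kidney from the parietal cells that line the glomerular capsule (chromosome 16, 26356642 to 26371841). It was at 7.77, 6.03 and 7.41 FPKM in fat-1, against 15.5, 7.25 and 9.26 FPKM in WT. The groups overlapped, and WT replicate 1, the library with the high macrophage markers, was well above the rest. Means were 7.07 ± 0.918 FPKM in fat-1 and 10.7 ± 4.29 FPKM in WT (SD, n = 3 each), with a log2 difference of -0.48 ± 0.26 (SE; adjusted p = 0.657) that was -0.19 without WT replicate 1. Podocyte markers, taken as another glomerular cell type, had positive differences in 6 of 7 tested genes, with a median of 0.45 and 0 called. Every fat-1 library lay above WT for 4 of the 7, beside 8.33% of all tested genes. The summed level of the podocyte markers was 99.1 to 117 FPKM in fat-1 and 66.2 to 77.1 FPKM in WT. Relative to them Cldn1 was -0.32 ± 0.199 log2 units in fat-1 and 0.59 ± 0.491 in WT (SD, n = 3 each). Every fat-1 library lay below every WT library in this measure, though not in Cldn1 itself. The difference was -0.91 (exact two-sided permutation p = 0.1, the smallest possible), and -0.62 without WT replicate 1. After Benjamini-Hochberg adjustment over the 14 comparisons with cell type markers, its exact p became 0.969. This measure moves with the podocyte markers as well as with Cldn1, and the part of each was not tested. How often other genes separate in it was not computed.

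**Figure D4:**
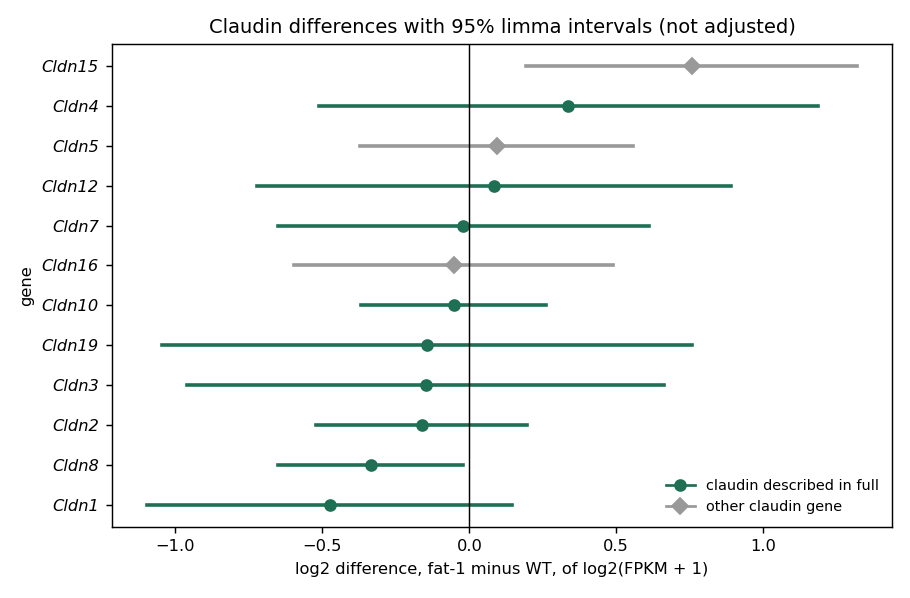
Log2 difference, fat-1 minus WT, with its unadjusted 95% limma interval for the 9 tested claudins (green) and 3 other tested claudin genes (grey). Among the 9, the interval of Cldn8 (-0.65 to -0.02) is the only one that leaves out 0, and among the other 3 that of Cldn15 (0.19 to 1.32).

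In order of mean FPKM over the 6 libraries, the 10 claudins ran Cldn2, Cldn10, Cldn8, Cldn12, Cldn7, Cldn4, Cldn19, Cldn1, Cldn3 and Cldn14. The ranges over libraries separated Cldn10 from Cldn8 and Cldn8 from Cldn12. Cldn2 and Cldn10 overlapped, and from Cldn12 to Cldn1 each gene overlapped the next lower; Cldn14 lay below the range of Cldn3.

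The genes for proteins that anchor or accompany claudins at the junction were not called either. Of 30 tested tight junction partners, 14 had positive and 16 negative differences, the median was -0.003, and 0 passed in either direction. Over all tested genes 0.18% were called, so 0 of 30 says little about this list. The scaffold gene Tjp1, which binds claudin tails, was at 10.2 ± 2.82 FPKM in fat-1 and 6.63 ± 2.51 FPKM in WT (SD, n = 3 each; adjusted p = 0.620). Ocln, encoding occludin, was at 6.92 ± 1.22 FPKM in fat-1 and 9.05 ± 2.28 FPKM in WT (adjusted p = 0.739). The polarity kinase gene Prkcz had the smallest p of the list, at 15.2 ± 1.17 FPKM in fat-1 and 19.4 ± 1.14 FPKM in WT (adjusted p = 0.363). Pard6a and Amotl1 came next, with log2 differences of 0.52 and 0.51 (limma adjusted p = 0.463 and 0.479). Of the 30 partners, 2 had every fat-1 library above WT (Pard6a and Amotl1) and 1 below (Prkcz). Over all tested genes these shares were 8.33% and 6.86%.

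Of 20 tested regulators of claudin genes or proteins, 9 had positive and 11 negative differences, the median was -0.03 and 0 passed. That count too stands beside the 0.18% called of all tested genes. Tfcp2l1, a transcription factor gene of the distal nephron, was at 51.6, 56.8 and 55.5 FPKM in fat-1, against 39.3, 37.6 and 28.1 FPKM in WT (0.64 ± 0.15 SE; adjusted p = 0.176). Klhl3, whose ubiquitin ligase adaptor acts on WNK kinases and on claudin-8, was at 9.34, 10.8 and 9.13 FPKM in fat-1, against 16.1, 12.4 and 12.2 FPKM in WT (-0.43 ± 0.15 SE; adjusted p = 0.376); it is also 1 of the distal convoluted tubule markers. The groups did not overlap for either gene, and neither passed. Of the 20 regulators, 2 had every fat-1 library above WT and 3 had every fat-1 library below WT. Over all tested genes these shares were 8.33% and 6.86%.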

How the data were processed

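Per the file headers, the authors deposited FPKM per protein-coding transcript, in a separate table for each sample. Tools named in the submitters' processing notes are featureCounts 1.5.0-p3, HISAT2 2.0.5 and DESeq2 1.20.0, with the mm10 build; which tool made the FPKM is not given. Each of the 27486 transcripts reaches 0.5 FPKM in at least 1 library, so gene sums leave out lower transcripts. Between 52 and 66 values per library lie above 0 but below 0.001 FPKM, less than whole reads would give; read numbers were not recovered, so depth is unknown and counting intervals are left out. No 2 libraries held identical values.

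Transcripts were summed per gene and fitted as log2(FPKM + 1) in limma 3.58.1 (R 4.3.3) with an intensity trend and robust variance, all 6 libraries, no covariates and no rescaling, for genes (or transcripts) that reached 1 FPKM in 3 or more libraries. P-values were Benjamini-Hochberg adjusted over all tested features, with a threshold of 0.05. A claudin's level relative to its segment is its log2(FPKM + 1) minus the mean over the segment's tested markers in the same library. These levels were compared by exact permutation. For Cldn1, podocyte markers were used, which belong to another glomerular cell type. The claudins, gene lists and tests were chosen with earlier results of these data known. All 10 claudins, their transcripts and other listed claudin genes were to be named, with up to 4 genes of smallest p from the partner, regulator and segment lists; Tjp1 and Ocln were named after their values were seen. Plots were drawn with matplotlib 3.10.9 in Python 3.11.15. One gene that the naming rule covers is not reported here.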

Additional observations from a re-analysis of the deposited data

How the results depend on the processing

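No claudin was called under any alternative tried, and 0 claudin transcripts were called. Without fat-1 replicate 1, fat-1 replicate 3 or WT replicate 3, 0 of all genes were called, so these runs say nothing about claudins. For transcripts the same held without fat-1 replicate 1 and without fat-1 replicate 3. Cldn1, Cldn2, Cldn4 and Cldn8 kept their direction in all 15 alternatives. Across them the difference of Cldn8 lay between -0.40 and -0.23 (adjusted p from 0.334 to 0.794). Directions turned only when a library was left out. Cldn7 was 0.21 without fat-1 replicate 2, 0.13 without WT replicate 1 and 0.02 without WT replicate 3. Cldn10 was 0.023 without fat-1 replicate 3 and 0.01 without WT replicate 3. Cldn12 was -0.04 without fat-1 replicate 3 and -0.28 without WT replicate 3. Without fat-1 replicate 2, Cldn19 was 0.26 and Cldn3 was 0.25. The cause was not tested. With a library left out, the differences ranged from -0.21 to 0.21 for Cldn7, -0.14 to 0.023 for Cldn10, -0.28 to 0.31 for Cldn12, -0.53 to 0.26 for Cldn19 and -0.38 to 0.25 for Cldn3.

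Of all genes, 21 were called, 14 higher and 7 lower. The total was 4 with no filter (2 higher, 2 lower), 41 at a mean of at least 5 FPKM (30 and 11), 52 rescaled to equal sums (41 and 11), 8 with median-of-ratios factors (4 and 4), 8 with trimmed mean of M values (4 and 4), 34 after quantile normalization (13 lower) and 33 without mitochondrial genes (25 higher); with a pseudocount of 0.1, 9 were higher. Leaving out a library gave 0 to 26 calls (0 to 18 higher, 0 to 8 lower), and 0 to 7 transcripts against 10. Relative to segment markers, changing Cldn8 from principal cells (-0.11) to distal convoluted tubule markers gave 0.40. No paired analysis was possible because the labels share no replicate number between the groups; the numbers used here only name samples in accession order. Low genes such as Cldn14 are limited by the unknown depth.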

Other observations

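Cldn15, a cation pore known from the intestine (chromosome 5, 136967869 to 136975844), was higher in every fat-1 kidney, at 8.49, 6.67 and 12.4 FPKM in fat-1 against 4.90, 5.86 and 4.0 FPKM in WT. The log2 difference was 0.76 ± 0.24 (SE; limma unadjusted p = 0.0157, adjusted p = 0.322) and did not pass over all genes. Groups separated in that direction were seen for 8.33% of all tested genes. Cldn5, the claudin of endothelial junctions (chromosome 16, 18776847 to 18778260), was at 5.04, 4.89 and 6.40 FPKM in fat-1 and 6.08, 3.79 and 5.40 FPKM in WT, a log2 difference of 0.09 ± 0.20 (SE; adjusted p = 0.956). It was counted among 12 endothelial markers, all with positive differences and a median of 0.92, of which 1, Plvap, passed the test; Cldn5 had the smallest difference of the 12. Cldn6, known mainly from embryonic epithelia, did not reach the filter, at 1.36, 0.610 and 0.491 FPKM in fat-1 and 0.983, 0.686 and 0.282 FPKM in WT.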
